A study of Mus musculus with 4 samples.

Results

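The mitosis and spindle genes examined here are a list of 40 genes, chosen by symbol, whose products carry a cell from the end of G2 through division. The list was chosen with earlier results of these data known. Shares set against all genes below hence describe the list and are no independent test. All 40 had a probe on the array, and all 40 were among the 13567 genes kept for comparison, out of 21154 genes that could be named. The study measured total RNA of primary mouse mesenchymal stromal cells (MSCs, here at passage 5), into which short hairpin RNAs were brought by retrovirus, on 1-colour Agilent arrays. Hairpins 1, 2 and 3 (shlSLR no.1 to no.3 in the labels) target Islr, which encodes Meflin, a cell surface and secreted protein of stromal cells, each at another sequence. They were on 1 array each, and a control hairpin (shControl) was on 1 array. Whether separate MSC preparations were used, and what the control hairpin targets, is not given in the sources used here. Hence n = 3 counts hairpins, and the spread between them may hold both hairpin and culture differences.

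As background, entry into mitosis is driven by cyclin-dependent kinase 1 with cyclins A and B. Aurora and Polo kinases then build the spindle, kinetochores tie chromosomes to it, and a checkpoint holds back the anaphase-promoting complex until every chromosome is attached. The transcripts of this machinery are made mostly in G2 and M, so in a culture their level is widely used as a measure of how many cells are dividing. In bulk RNA, a larger share of cells in that state and more RNA per cell cannot be told apart. Many of these genes carry CCAAT boxes, bound by NF-Y, and a cell cycle homology element with the core TTTGAA, bound by the MuvB complexes, just before their start. These roles are known from human and mouse cells.

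Promoter sequences from RefSeq (GRCm38.p6) matched 33 of the 40 genes, with 35 windows. In the 250 bases before the start, CCAAT was present on either strand in 26 of the 35 windows (74.3%), against 33.8% of the 32851 windows of all genes. At least 2 copies were present in 17 windows (48.6%, against 10.1%). The core TTTGAA was found on either strand in 14 windows (40%, against 16%), and both motifs in 12 (34.3%, against 5.55%). The motifs overlapped each other in 0 of the 35 windows, and a match of letters is a description, not a bound site. Below are 4 promoters that hold both motifs, in lower case with every CCAAT (or ATTGG) and TTTGAA (or TTCAAA) in capitals. They are those of Cdc20 (chr4:118437344-118437593, minus strand), Ccnb2 (chr9:70421555-70421804, minus strand), Mki67 (chr7:135716380-135716629, minus strand) and Prc1 (chr7:80294226-80294475, plus strand).
Cdc20: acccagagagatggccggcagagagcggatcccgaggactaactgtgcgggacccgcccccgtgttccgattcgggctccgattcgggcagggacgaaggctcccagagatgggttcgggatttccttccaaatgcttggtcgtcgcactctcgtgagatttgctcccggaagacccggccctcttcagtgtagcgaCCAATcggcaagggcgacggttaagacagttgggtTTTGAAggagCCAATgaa
Ccnb2: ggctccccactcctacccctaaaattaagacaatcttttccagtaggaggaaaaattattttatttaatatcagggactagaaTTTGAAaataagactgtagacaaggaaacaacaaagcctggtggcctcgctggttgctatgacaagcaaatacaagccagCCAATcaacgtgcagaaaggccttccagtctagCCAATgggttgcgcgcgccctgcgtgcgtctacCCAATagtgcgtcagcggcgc
Mki67: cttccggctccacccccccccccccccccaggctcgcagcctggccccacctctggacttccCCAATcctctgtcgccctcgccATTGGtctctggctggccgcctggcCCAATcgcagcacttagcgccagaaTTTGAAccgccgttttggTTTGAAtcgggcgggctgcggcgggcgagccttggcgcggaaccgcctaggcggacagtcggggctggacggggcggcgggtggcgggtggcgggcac
Prc1: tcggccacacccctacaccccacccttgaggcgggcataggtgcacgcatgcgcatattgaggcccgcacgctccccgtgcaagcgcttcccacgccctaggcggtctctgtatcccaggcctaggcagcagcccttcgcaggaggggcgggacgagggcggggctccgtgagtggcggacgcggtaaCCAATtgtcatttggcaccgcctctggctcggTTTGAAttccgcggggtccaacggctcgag
In Cdc20 and Prc1 the TTTGAA core begins 18 and 30 bases before the start, with CCAAT boxes at 53 and 8 bases in Cdc20 and at 62 bases in Prc1. In Ccnb2 it lies 167 bases before the start, apart from the 3 CCAAT boxes at 87, 54 and 21 bases. Mki67 has 2 copies of TTTGAA, at 116 and 98 bases, downstream of its 3 CCAAT boxes.

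Signal was well above background for 49.4% to 53.8% of features, and no feature was saturated. Values below are scaled signals, that is, the processed signal brought to the shControl array's 75th percentile, and log2 differences of a hairpin array minus the shControl array. Islr itself had a scaled signal of 71.6 on hairpin 2, against 454 on shControl, and it was not well above background on hairpins 1 and 3. All 12 MSC markers were above background on all 4 arrays, with summed scaled signals of 424651, 458240 and 372660 on hairpins 1, 2 and 3, against 484261 on shControl. Single MSC markers differed in both directions. Pdgfra was at 8475, 4090 and 4037 on hairpins 1, 2 and 3, against 9101 on shControl, and Col3a1 at 21493, 22862 and 8085, against 40298. Thy1 was at 5137, 3019 and 2742, against 1603 on shControl. Of 10 markers of blood cells and macrophages, 7 were above background on all 4 arrays, with summed scaled signals of 140492, 179810 and 165781 on hairpins 1, 2 and 3, against 179904 on shControl, most of it from Cd34 and Ly6c1. The integrin gene Itgam was at 9327, 7671 and 5063 on hairpins 1, 2 and 3, against 8880 on shControl, while the leukocyte gene Ptprc and the macrophage gene Adgre1 were not above background on any array. The 8 endothelial markers summed to 3677, 3408 and 3703, against 3643 on shControl, nearly all of it Kdr (3524, 3304 and 3426, against 3532). Pecam1 was above background on all 4 arrays, Vwf was at 59.6, 16.9 and 192, against 21.5 on shControl, and the other 5, Cdh5 among them, were above background on none. The 7 epithelial markers summed to 151, 246 and 170, against 167 on shControl. Krt18, above background on all 4 arrays, was highest on hairpin 2 (61.9, 141 and 78.1, against 84.2 on shControl), Krt5 was above background on hairpins 2 and 3 and on shControl, Krt14 on hairpins 2 and 3, and Epcam and Cdh1 on none. The part of these other cells in the results below was not tested.

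Across the hairpins, mitosis and spindle genes were higher than on the shControl array, with the largest differences on hairpin 2. The median log2 difference of the 40 genes was 0.38, 0.79 and 0.47 on hairpins 1, 2 and 3. Averaged over hairpins, the median gene differed by 0.56, or 1.48-fold. The same medians over all 13567 genes were -0.01, 0.00 and 0.05, and 0.01 for the mean. The shControl array was the lowest of the 4 arrays for 39 of the 40 genes, against 27.6% of all genes. It was the highest for 0 of the 40, against 24.6% of all genes. All 3 differences share the single shControl array, so that its own deviation moves them together. Cenpf was the exception to the count of 39. The genes were mostly bright: 34 of the 40 lay at or above the 75th percentile on all 4 arrays. That percentile was taken over all features, and 7996 of the 13567 genes passed the same rule. For the 34 the median difference was 0.56, against 0.04 over the 7996 genes that are as bright. Among those 7996, shControl was the lowest array for 32.0%.

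No single gene of the 40 passed the test. By limma, with p-values adjusted over all 13567 genes, 0 of the 40 were called, against 0.00% of all genes called higher and 0.346% called lower. At an unadjusted limma p under 0.05, 8 of the 40 were higher (Iqgap3, Foxm1, Birc5, Ccna2, Ttk, Incenp, Kif23 and Kif22), against 1.52% of all genes, and 0 were lower, against 3.31%. The smallest adjusted p was 0.757, for Iqgap3. The lone shControl array has no spread of its own, and the fit takes the spread between hairpins for it. With this design a count of 0 was close to fixed at the size of these differences: of the 47 genes limma called, the one nearest to 0 had a log2 difference of -2.80, while the largest of the 40 was 0.96. The same holds for each count of 0 limma calls below, and none of them shows that genes did not differ. The 95% limma interval of the difference held 0 for 32 of the 40 genes, reaching a median of 0.67 on the log2 scale to either side.

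**Figure D1:**
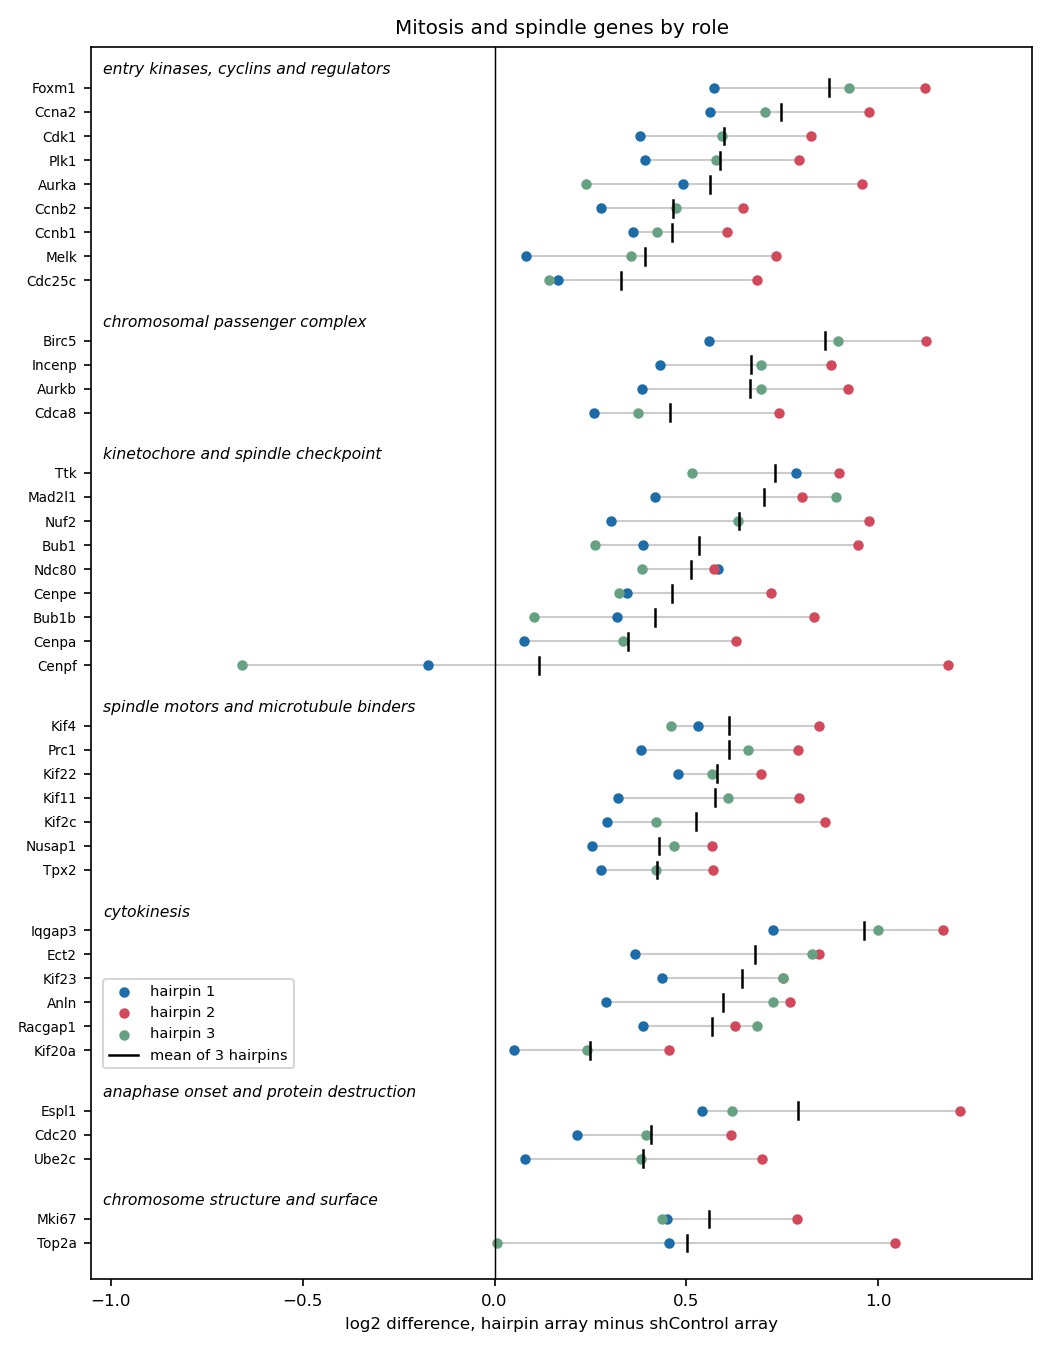
Log2 difference of each hairpin array minus the shControl array (x axis) for the 40 mitosis and spindle genes (rows, grouped by role). Points are single arrays and black ticks the mean of the 3 hairpins. Apart from Cenpf, every gene has its 3 points above 0, and hairpin 2 lies farthest to the right in 37 of the 40, against 25.2% of all genes.

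By size alone, with no test, the hairpins differed in how many genes passed 1.5-fold. On hairpin 2, 36 of the 40 genes were at least 1.5-fold higher than on shControl, against 7.28% of all genes, and Kif20a, Nusap1, Tpx2 and Ndc80 were the other 4. On hairpin 3, 16 of the 40 were at least 1.5-fold higher (9.68% of all genes), and on hairpin 1 only Iqgap3 and Ttk were, 2 of the 40 (4.05% of all genes). Iqgap3 was the 1 gene past 1.5-fold on all 3 hairpins (0.958% of all genes). Without hairpin 1 that count was 16 of the 40, and the share of all genes is then at most the 7.28% of hairpin 2. Without hairpin 3 the count was 2 of the 40, and that share is at most the 4.05% of hairpin 1. Asking for 2 hairpins and not 3 loosens the rule for every gene, so the 0.958% is not the share to set beside these counts. At least 1.5-fold lower were 0 of the 40 on hairpin 1 (8.38% of all genes), 0 on hairpin 2 (9.35%), 1 on hairpin 3 (11.4%), namely Cenpf, and 0 on all 3 (3.04%).

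Hairpins can also be set against each other, without the shControl array. Hairpin 2 was above hairpin 1 for 39 of the 40 genes (53.5% of all genes) and above hairpin 3 for 38 of the 40 (47.0% of all genes). The medians of these differences were 0.45 and 0.23 on the log2 scale, against 0.03 and -0.03 over all genes. Hairpin 3 was above hairpin 1 for 29 of the 40 (57.4% of all genes). Hairpin 2 was also the array with the most Islr signal left among the 3 hairpins, 71.6 against 11.7 on hairpin 1 and 3.51 on hairpin 3. With 1 array a hairpin there is no test of these orders.

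Entry kinases, cyclins and their regulators were higher on every hairpin in 9 of 9 genes (27.6% of all genes), with mean log2 differences from 0.33 to 0.87. Foxm1, the transcription factor that switches on G2 and M genes, had the largest difference of this group. Its scaled signal was 2038, 2985 and 2604 on hairpins 1, 2 and 3, against 1372 on shControl, a mean log2 difference of 0.87 ± 0.28 (SD, n = 3), or 1.83-fold. Plk1, the Polo kinase of mitotic entry and spindle assembly, was at 11797, 15584 and 13408 on hairpins 1, 2 and 3, against 8994 on shControl (0.59 ± 0.20). All 3 hairpin values lay above the shControl value for both genes, in the order hairpin 1, 3, 2. For Ccnb2, a B-type cyclin, the signals were 10734, 13885 and 12292, against 8859 on shControl (0.47 ± 0.19). The spindle pole kinase gene Aurka had 7920, 10926 and 6644, against 5632 on shControl (0.56 ± 0.36), and here hairpin 3 was the lowest of the hairpins. Cdc25c, the phosphatase that activates Cdk1, had the smallest difference of the group, 310, 444 and 305, against 276 on shControl (0.33 ± 0.31). Its hairpins 1 and 3 were close to shControl, and the mean difference was about as large as the spread. The others were Ccna2, the A-type cyclin (0.75 ± 0.21), Cdk1 itself (0.60 ± 0.22), the cyclin gene Ccnb1 (0.46 ± 0.13) and the kinase gene Melk (0.39 ± 0.33).

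The chromosomal passenger complex, which corrects faulty attachments and later marks the division plane, had the highest median of the groups with at least 3 genes, 0.67. Birc5 encodes survivin, a subunit of the complex. Its scaled signal was 19080, 28204 and 24082 on hairpins 1, 2 and 3, against 12943 on shControl, a difference of 0.86 ± 0.28 (SD, n = 3), or 1.81-fold. Incenp, the scaffold subunit, was at 13924, 18955 and 16705, against 10326 on shControl (0.67 ± 0.22). The shControl value lay below all 3 hairpins for both. Cdca8, the borealin subunit, was at 6401, 8935 and 6931, against 5348 on shControl (0.46 ± 0.25). The kinase subunit Aurkb was dim, at 92.6, 134 and 115, against 71.0 on shControl (0.67 ± 0.27). With normexp background correction and quantile normalization the Aurkb difference was 0.32. The median of the group rests in part on Aurkb. The order of the arrays was the same for the 4 subunits, with hairpin 2 highest, then 3, then 1, then shControl.

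Of the kinetochore and checkpoint genes, 8 of 9 were lowest on shControl (27.6% of all genes), and the mean differences ran from 0.12 to 0.73. Ttk, the checkpoint kinase known as Mps1, led with 219, 236 and 181 on hairpins 1, 2 and 3, against 127 on shControl (0.73 ± 0.20, SD, n = 3). Mad2l1, which holds Cdc20 in check, was at 6484, 8468 and 8994, against 4857 on shControl (0.70 ± 0.25). It is 1 of the 2 genes in which hairpin 3 and not hairpin 2 was the highest array. The kinetochore motor gene Cenpe had 8416, 10911 and 8297, against 6629 on shControl (0.46 ± 0.22). Cenpa, the histone variant that marks the centromere, was at 4487, 6580 and 5366, against 4252 on shControl (0.35 ± 0.28), with hairpin 1 only just above shControl. Cenpf was near background throughout. It read 26.6, 68.1 and 19.0 on hairpins 1, 2 and 3, against 30.0 on shControl, was not well above background on hairpin 1, and differed by 0.12 ± 0.95, less than its spread. Its single high array was hairpin 2, and without hairpin 2 its mean difference was -0.42.

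Hairpin 3 lay below hairpin 1 for 6 of these 9 kinetochore and checkpoint genes, for 0 of the 6 cytokinesis genes and for 11 of all 40. Over all genes it did so for 5780 of 13567. The difference between groups was not tested. Bub1 and Bub1b, checkpoint proteins of the kinetochore, differed by 0.95 and 0.83 on hairpin 2 and by 0.26 and 0.10 on hairpin 3. The Ndc80 complex genes Nuf2 (0.64 ± 0.34) and Ndc80 (0.51 ± 0.11) were higher on all 3 hairpins.

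Bub1 gives a measure of spotting noise, since its probe is printed 10 times on each array. The 10 scaled spot signals ran from 1137 to 1255 on hairpin 1 (median 1213), from 1604 to 1916 on hairpin 2 (median 1788) and from 1041 to 1164 on hairpin 3 (median 1114), against 844 to 990 on shControl (median 903). Spots of hairpins 1 and 3 overlapped each other, and no spot of a hairpin array was as low as a shControl spot. The SD of the spots was between 0.06 and 0.07 on the log2 scale on each array, and the median over the 241 probes with 10 spots that were above background everywhere was 0.06 to 0.07. Spots of 1 array share their RNA, so this is technical error and says nothing of the spread between cultures.

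**Figure D2:**
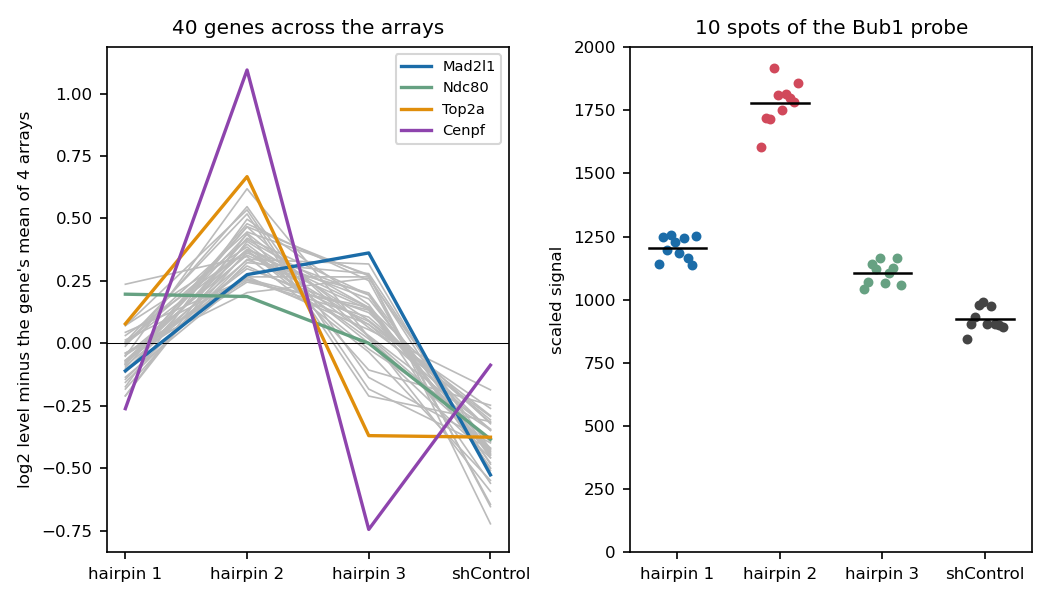
Left, log2 level of each of the 40 genes on the 4 arrays (x axis) minus the gene's own mean, with 4 genes coloured and the other genes in grey. Right, the 10 scaled spot signals of the Bub1 probe on each array, with the mean as a black line and sideways spread for legibility only. Most lines peak on hairpin 2 and are lowest on shControl, Cenpf drops below shControl on hairpins 1 and 3, and Top2a comes back to its shControl level on hairpin 3.

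Spindle motors and microtubule binders had the narrowest range of mean differences among the groups with more than 3 genes, from 0.42 to 0.61. All 7 were lowest on shControl (27.6% of all genes). Kif4, a chromokinesin, had scaled signals of 1282, 1594 and 1221 on hairpins 1, 2 and 3, against 887 on shControl (0.61 ± 0.21, SD, n = 3). Prc1, which bundles the midzone microtubules and whose promoter is shown above, was at 6809, 9046 and 8260, against 5230 on shControl (0.61 ± 0.21). For Kif22, another chromokinesin, the values were 6014, 6975 and 6394, against 4315 on shControl (0.58 ± 0.11), and the 3 hairpins lay close together. Tpx2, the activator of Aurora A on the spindle, was the smallest, at 2865, 3507 and 3166, against 2364 on shControl (0.42 ± 0.15). The bipolar spindle motor gene Kif11 (0.57 ± 0.24), the microtubule depolymerase gene Kif2c (0.52 ± 0.30) and Nusap1 (0.43 ± 0.16) lay in between.

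Cytokinesis genes held both the largest and the second smallest difference of the 40. Iqgap3, a scaffold protein gene of proliferating cells, had scaled signals of 759, 1033 and 918 on hairpins 1, 2 and 3, against 459 on shControl. Its difference of 0.96 ± 0.22 (SD, n = 3) is 1.95-fold, with an unadjusted limma p of 0.0148 and an adjusted p of 0.757. Kif20a, the midzone kinesin that carries Aurora B, was at 4938, 6530 and 5634, against 4768 on shControl (0.25 ± 0.20), and its hairpin 1 value was close to shControl. The contractile ring protein gene Anln was at 8526, 11884 and 11530, against 6977 on shControl (0.59 ± 0.26). Racgap1, a subunit of centralspindlin, was at 7500, 8868 and 9227, against 5741 on shControl (0.57 ± 0.16). Its partner Kif23 (0.65 ± 0.18) and Ect2 (0.68 ± 0.27) had hairpins 2 and 3 nearly level. In this group the median difference was 0.74 on hairpin 3 and 0.76 on hairpin 2, while in the kinetochore and checkpoint group it was 0.34 and 0.83.

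Genes of anaphase onset were higher on all 3 hairpins in 3 of 3 (27.6% of all genes). Espl1, the gene of separase, which cuts cohesin, had scaled signals of 734, 1169 and 775 on hairpins 1, 2 and 3, against 505 on shControl (0.79 ± 0.37, SD, n = 3). Cdc20, the activator of the anaphase-promoting complex, was at 11141, 14708 and 12609, against 9596 on shControl (0.41 ± 0.20). Ube2c, the ubiquitin-conjugating enzyme of that complex, was at 5583, 8573 and 6884, against 5287 on shControl (0.39 ± 0.31). Hairpin 1 stood only slightly above shControl for Ube2c and Cdc20.

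The widely used proliferation marker Mki67 had scaled signals of 9720, 12291 and 9625 on hairpins 1, 2 and 3, against 7114 on shControl, a difference of 0.56 ± 0.20 (SD, n = 3), or 1.47-fold. Top2a, the topoisomerase that untangles sister chromatids, was at 2574, 3873 and 1887, against 1879 on shControl (0.50 ± 0.52). On hairpin 3 Top2a was level with shControl, and with quantile normalization the count of genes lowest on shControl was 38, without Top2a and Cenpf.

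Genes with a second probe gave a check within the arrays. Of the 40 genes, 12 had more than 1 kept probe, with 16 probes besides the one used. The shControl array was the lowest of the 4 for 15 of the 16, against 27.6% of all genes, and the median of their mean differences was 0.60. A dim Cdk1 probe among the 15 (48.6, 33.3 and 38.5 on hairpins 1, 2 and 3) was not above background on shControl (21.7). It was kept only through the hairpins, so for it shControl was nearly bound to be the lowest. Mean differences of the probes of 1 gene spanned a median of 0.06 on the log2 scale, and 9 of the 12 genes stayed within 0.2. The 3 Birc5 probes gave 0.86, 0.93 and 0.88. Kif2c was the least uniform, with 0.52 for the probe used and 0.10 for the other, whose scaled signal was 195, 289 and 217 on hairpins 1, 2 and 3, against 216 on shControl. Probes of a gene share the RNA of each array, so they repeat the measurement and not the experiment.

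**Figure D3:**
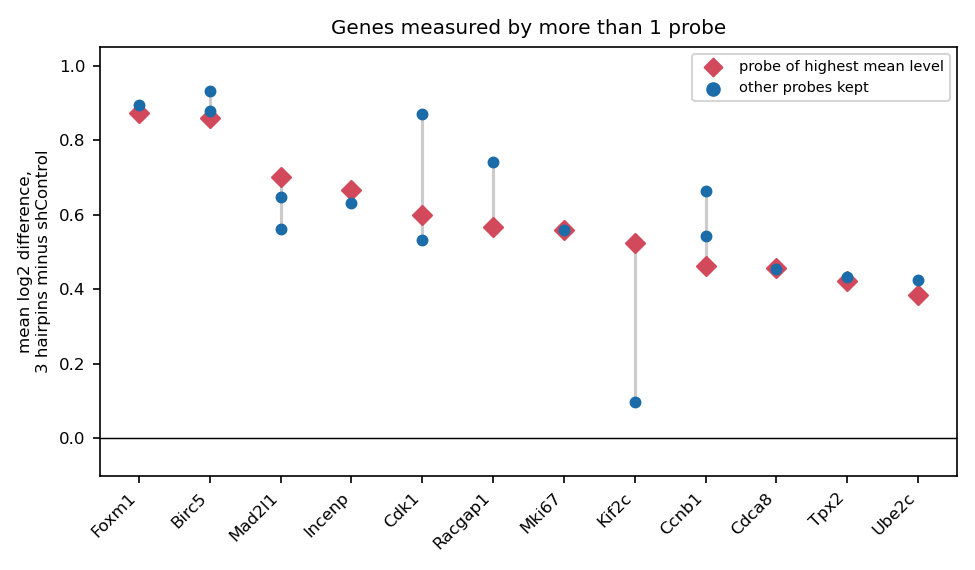
Mean log2 difference of the 3 hairpins minus shControl (y axis) for the 12 genes with more than 1 kept probe (x axis). Red diamonds are the probe of highest mean level, blue points the other kept probes. Probes lie close together for most genes and are farthest apart for Kif2c and Cdk1. The highest Cdk1 point is a dim probe that was not above background on shControl.

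Other genes of the division machinery were set beside these. Their lists, here and below, were also chosen with earlier results of these data known. They come from the same arrays and are no independent support. In the 5 further mitotic lists together, shControl was the lowest array for 103 of 135 genes and the highest for 4, against 27.6% and 24.6% of all genes. Limma called 0 of the 135 in either direction. At an unadjusted limma p under 0.05, 11 were higher, against 1.52% of all genes, and 0 lower, against 3.31%. The median of the mean differences was 0.43 over 39 other kinetochore and centromere genes and 0.42 over 34 other spindle and kinesin genes. Cenph, a subunit of the inner kinetochore, was at 0.80 ± 0.26 (SD, n = 3) and Cdca5, the cohesin protector sororin, at 0.78 ± 0.08, while Cenpp (-0.07 ± 0.61) and Mis12 (0.08 ± 0.20) were at the other end. Among spindle genes, Gtse1 (0.76 ± 0.26) and the centriole kinase gene Plk4 (0.74 ± 0.19) were the highest and Haus4 (-0.05 ± 0.32) and Kif2a (0.09 ± 0.10) the lowest. Condensin and cohesin genes had a median of 0.30, with the condensin genes Ncapd2 (0.62 ± 0.16) and Smc2 (0.51 ± 0.37) at the top and the cohesin regulator Pds5b (-0.15 ± 0.07) and the subunit Stag1 (0.04 ± 0.08) at the bottom.

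Genes of the anaphase-promoting complex and of mitotic exit had a median of 0.24, from the inhibitor Fbxo5 (0.72 ± 0.34) and the Cdk1 inhibitory kinase Pkmyt1 (0.61 ± 0.35) to Arpp19 (-0.09 ± 0.26) and the subunit Anapc2 (-0.16 ± 0.10). Other cytokinesis genes had a median of 0.17, with Arhgap11a (0.64 ± 0.20) and Depdc1a (0.56 ± 0.28) highest and Septin9 (-0.45 ± 0.21) and the membrane scission gene Vps4b (-0.56 ± 0.59) lowest. Regulators of the E2F and MuvB families had a median of 0.28. E2f2, an activating E2F, was at 0.99 ± 0.06 and E2f7, a repressing one, at 0.81 ± 0.47, while Rbl2, the pocket protein of quiescent cells, was at -0.24 ± 0.16 and the MuvB subunit Lin52 at 0.00 ± 0.05. In each of these 3 lists limma called 0 genes. At an unadjusted limma p under 0.05, 0 of 27, 1 of 19 and 2 of 20 genes were higher and 0 lower, against 1.52% and 3.31% of all genes.

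S phase and replication genes gave medians of 0.33, 0.80 and 0.35 on hairpins 1, 2 and 3, beside 0.38, 0.79 and 0.47 for the mitosis and spindle genes. The shControl array was the lowest for 39 of 41 of them, against 27.6% of all genes. Asf1b (0.96 ± 0.20) and Gmnn (0.89 ± 0.19) were highest and Gins3 (-0.22 ± 0.17) and Tyms (0.01 ± 0.49) lowest. Inhibitors of cyclin-dependent kinases and other arrest genes lay on the other side of 0, with a median of -0.35. For them shControl was the highest array for 10 of 19 and the lowest for 2, against 24.6% and 27.6% of all genes. The stress gene Gadd45a was at -0.77 ± 0.26 and the growth arrest gene Gas1 at -0.72 ± 0.13, while Trp53 (0.93 ± 0.33) and Cdkn2d (0.31 ± 0.28) were at the top. The Trp53 probe was dim, at 52.5, 68.7 and 82.4 on hairpins 1, 2 and 3, against 35.1 on shControl. Cdkn1a (-0.55 ± 0.29), Cdkn2a (-0.49 ± 0.17), Cdkn2c (-0.35 ± 0.05) and Cdkn1b (-0.28 ± 0.09) were lower on all 3 hairpins. Cdkn2d, Cdkn1c (-0.71 ± 1.24) and Cdkn2b (-0.11 ± 0.55) differed in sign between hairpins. None of these genes was called by limma. At an unadjusted limma p under 0.05, 4 of 41 replication genes were higher and 0 lower, and 1 of 19 arrest genes was higher and 2 lower. Over all genes the shares were 1.52% higher and 3.31% lower.

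**Figure D4:**
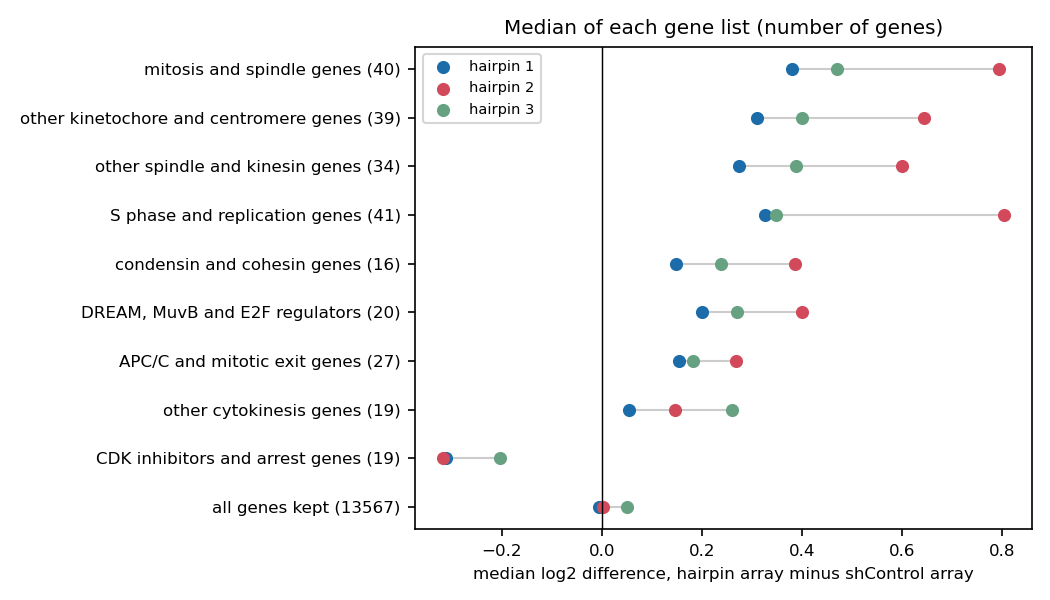
Median log2 difference of each hairpin array minus the shControl array (x axis) for the mitosis and spindle genes, the other division lists and all genes kept (rows, with the number of genes). Hairpin 2 is farthest to the right in each division list except other cytokinesis genes, the arrest genes lie left of 0, and all genes lie near 0.

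Exact matches to the promoter motifs, searched before the start of 33 genes, did not sort these genes by the size of their difference. Other spellings of the motifs and the bases after the start were not searched. A gene without a match can therefore still carry such an element. The 13 genes with TTTGAA in a window had a median difference of 0.57 (0.39 to 0.96), and the 20 without it a median of 0.55 (0.12 to 0.86). For CCAAT the medians were 0.56 over 24 genes with it and 0.59 over 9 without it. The ranges overlapped in both cases.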

How the data were processed

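Cy3-labelled cRNA of 4 cultures was hybridised to 1-colour arrays on 1 slide. Per the file headers, Feature Extraction 11.5.1.1 by Agilent read the arrays, with protocol GE1_1105_Oct12, design 028005 and build mm9. The deposited intensity is the processed signal of each feature, after background subtraction and detrending within the array by that software. The deposited series table is that intensity times 1 factor per array (2.02 to 2.25), of unstated choice. Depth does not apply to arrays, and their number limits the precision.

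Spots of a probe (59305 features, 55681 probes) were averaged as log2, and each array's 75th percentile was subtracted. Accessions matched to RefSeq (GRCm38.p6) named 28026 probes. Probes well above background on shControl or on all 3 hairpins were kept, and the probe of highest mean level stood for a gene. Hairpins were compared with shControl by limma 3.58.1 (R 4.3.3, lmFit and eBayes, two-sided, Benjamini-Hochberg over 13567 genes, threshold 0.05). On simulated data the fit returned the sizes put in but called no gene, also for changes larger than any of the 40 genes showed, so the absence of calls carries little information. The members and lists were chosen with earlier results of these data known. Genes given array by array were, for each role, the 3 of highest mean signal, those with the largest and smallest mean difference, and any below background, plus Bub1 for its 10 spots. From each further list the 2 highest and the 2 lowest were named, plus the other Cdkn genes of the arrest list. Alternatives were other scalings, background correction, filters, probe rules, an intensity trend, a threshold of 0.10 and leaving out each hairpin.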

Additional observations from a re-analysis of the deposited data

How the results depend on the processing

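As reported and in each of the 13 alternatives limma called 0 of the 40 mitosis and spindle genes, which shows no stability, since the design could hardly call differences of this size, with a smallest adjusted p of 0.650 for a gene of the list over them (at a threshold of 0.10 as well, 0 were called). Their median log2 difference ranged from 0.47 without hairpin 2 to 0.63 without hairpin 1, and the count with shControl lowest from 37 to 39. That count was 37 with normexp background correction and quantile normalization, which left out Top2a, Bub1b and Cenpf. With the filter for signal above background on all 4 arrays, Cenpf was dropped and 39 of the 40 genes were compared. Genes at least 1.5-fold higher on all hairpins numbered 1 as reported (0.958% of all genes) and 3 with quantile normalization (0.995%). They numbered 3 with the mean over the probes of a gene, and 1 to 16 when 1 hairpin was left out. For the 16, without hairpin 1, the share of all genes is at most the 7.28% of hairpin 2. Leaving out a hairpin loosens that rule for every gene. The difference of Cenpf turned to -0.42 without hairpin 2 (-0.42 to 0.50 over the 3 hairpins left out in turn), and the other 478 recomputed differences of single genes kept their sign. Over all genes, 0 were called higher and 47 lower as reported. The lower calls numbered 75 with quantile normalization and 0 with normexp, without a filter on dim probes, with a filter for signal above background on all 4 arrays, or with an intensity trend, and 0 to 0 when any 1 hairpin was left out. At a threshold of 0.10 there were 2 higher and 81 lower. The cause of these changes was not tested. No paired analysis was possible because a single shControl array stood against the 3 hairpin arrays. The median of all genes moved by less than 0.1 on the log2 scale under each scaling. Signals near background limit Cenpf most.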
